A study of Homo sapiens with 8 samples.

Results

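The genes described here are 28 genes of cholesterol synthesis and its control, out of 60230 genes in the deposited table. They were chosen by function, with earlier results of these data known. Of these, 21 encode the enzymes of the mevalonate and sterol pathway, counting ERG28, a scaffold that holds some of them together, 6 encode the SREBP machinery, and SOAT1 encodes an enzyme that stores cholesterol as ester. Each symbol matched a single Ensembl identifier. Filtering on low counts kept 27 of the 28 genes among the 13404 genes tested, and INSIG1 was left out by it.

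The cells were HepG2, an established cell line from a human hepatocellular carcinoma, and all groups carried the same overexpressed CYP3A4, a cytochrome that oxidizes drugs and pollutants, under blasticidin in the culture medium. They were exposed for 24 h to compound 4, 5, or 6, each at its own IC50 concentration, or to 0.2% DMSO as ctrl, giving 4 groups of 2 replicates. The compounds are bisphenol-type antioxidants of plastics, in which a carbon bridge joins a pair of phenol rings. Compounds 4 and 6 differ in the group beside the hydroxyl, which is tert-butyl in compound 4 and cyclohexyl in compound 6. Compound 5 carries tert-butyl groups in place of the ring methyl groups of compound 4, and its bridge is ethylidene instead of methylene. Concentrations were therefore not matched, and every comparison between compounds below is one at IC50. The viability assay behind these concentrations used a longer exposure than the cells sampled for RNA. Equal effect on viability at the time of sampling is therefore not shown. Nothing states that the replicates came from separate cultures beyond a day number in their labels, and p-values measure the spread between these samples, which may be technical.

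Cells make cholesterol from acetyl-CoA by way of mevalonate, isoprenoid diphosphates, squalene, and lanosterol, and liver cells are a main site of this synthesis. When sterols in the endoplasmic reticulum are low, SCAP carries the membrane-bound factor SREBP-2 to the Golgi apparatus, where a pair of proteases release its active part, which enters the nucleus and switches on nearly the whole pathway. When sterols are plentiful, INSIG proteins hold SCAP and SREBP-2 back, and the genes of the pathway fall quiet together.

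The libraries held between 9472261 and 13308975 counts on genes. A floor set at 3 counts corresponded to between 0.234 and 0.313 CPM (counts relative to the library total, here scaled by TMM). This floor allows for counting error only. Mitochondrial transcripts took 4.91% and 5.12% of the counts in ctrl (DMSO) and more in all treated samples, between 5.31% and 6.21%. CYP3A4 was at 198 and 207 CPM in ctrl (DMSO), 287 and 216 under compound 4, 371 and 421 under compound 5, and 170.5 and 171 under compound 6. All 10 hepatocyte markers were detected, and their summed level was between 36245 and 40446 CPM in ctrl (DMSO), 28301 and 33024 under compound 4, 27639 and 29487 under compound 5, and 28327 and 34132 under compound 6. Of these markers, 3, 4, and 2 were called lower with compounds 4, 5, and 6. TTR (0.66, adjusted p = 0.0365) and APOA2 (0.51, adjusted p = 0.0213) were called higher with compound 4. The summed level of 10 markers of blood, endothelial, and stromal cells lay between 29.8 and 42.4 CPM in ctrl (DMSO), 65.5 and 66.5 under compound 4, 39.2 and 45.0 under compound 5, and 54.8 and 56.3 under compound 6. Only CD68 and PDGFRB of these 10 passed the filter, and both were called higher with compound 4 (0.80 and 1.80, adjusted p = 0.00790 and 0.00864) and neither with compounds 5 and 6. CD68 made up most of the summed level in every sample, from 27.2 CPM in ctrl (DMSO) replicate 2 to 57.6 CPM in compound 4 replicate 2. PTPRC, CD3E, COL1A2, and DCN were at 0 in all 8 samples. The mitochondrial share was above and the hepatocyte sum below ctrl (DMSO) in every treated sample. The sum of the other markers was above it with compounds 4 and 6 and overlapped it with compound 5. The part of these values in the results below was not tested. In such bulk samples, fewer cells of a type and less RNA per cell cannot be told apart.

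Promoter sequences were available for 25 of the 28 genes and are shown for 4 of them, because these 4 span the range of the results: MSMO1 and TM7SF2 are enzymes that fell far, SREBF2 encodes SREBP-2 itself, and MBTPS1 encodes a protease whose transcript rose. Each stretch runs 5′ to 3′ on the strand of the gene, from 250 to 50 bases before the RefSeq start (GRCh38.p14), and ends before the gene in the annotation begins. Capitals mark TCACNCCAC, a form of the sterol regulatory element that SREBP binds, and CCAAT, the box bound by NF-Y, a factor that works beside SREBP; a match on the opposite strand reads ATTGG. The MSMO1 stretch is chr4:165327419-165327619 on the plus strand, TM7SF2 is chr11:65111622-65111822 on the plus strand, SREBF2 is chr22:41832855-41833055 on the plus strand, and MBTPS1 is chr16:84116992-84117192 on the minus strand.
MSMO1: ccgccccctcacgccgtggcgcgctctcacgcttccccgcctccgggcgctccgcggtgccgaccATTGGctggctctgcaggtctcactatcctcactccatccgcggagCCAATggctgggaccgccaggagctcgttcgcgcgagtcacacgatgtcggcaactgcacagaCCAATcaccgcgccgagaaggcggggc
TM7SF2: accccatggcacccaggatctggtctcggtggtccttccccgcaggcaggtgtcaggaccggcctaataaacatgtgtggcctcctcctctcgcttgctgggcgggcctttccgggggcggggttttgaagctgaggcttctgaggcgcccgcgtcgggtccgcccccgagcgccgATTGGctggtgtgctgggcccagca
SREBF2: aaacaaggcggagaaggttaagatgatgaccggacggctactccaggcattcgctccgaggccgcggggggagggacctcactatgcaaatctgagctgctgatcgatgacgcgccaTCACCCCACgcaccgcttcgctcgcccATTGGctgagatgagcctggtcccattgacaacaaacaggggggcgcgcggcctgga
MBTPS1: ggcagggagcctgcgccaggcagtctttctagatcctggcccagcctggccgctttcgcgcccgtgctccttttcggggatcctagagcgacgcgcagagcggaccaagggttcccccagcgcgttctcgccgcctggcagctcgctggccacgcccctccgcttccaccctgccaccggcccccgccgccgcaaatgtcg

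The MSMO1 promoter held 4 CCAAT boxes in the 250 bases before its start, 3 of them in the printed stretch, and those of TM7SF2 and SREBF2 held 1 each. TCACNCCAC was found only before SREBF2 among the 25 genes, between 125 and 133 bases from its start. The MBTPS1 promoter held no match to either motif, nor to GGGCGG, the box of Sp1. Over 250 bases and both strands, CCAAT occurred in 13 of 18 enzyme promoters, 2 of 6 promoters of the SREBP machinery (SREBF2 and INSIG1), and that of SOAT1, against 33.0% of 27305 promoters of all genes. GGGCGG occurred in 15 of 18 enzyme promoters, 4 of 6 of the machinery, and that of SOAT1, against 42.3% of all promoters, and TCACNCCAC in 0.875% of all promoters. No match to a motif overlapped a match to another. These matches describe the letters in the windows and show no binding. The scan took only exact matches to TCACNCCAC, a single form of the sterol regulatory element. A window without a match is therefore not shown to lack such an element.

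All 3 compounds lowered the transcripts of sterol synthesis, and this held from the first step at acetyl-CoA to the last reductases. With compound 4, 19 of the 21 enzyme genes fell, with compound 5 also 19, and with compound 6 15, and none rose (edgeR quasi-likelihood test, adjusted p under 0.05). At the median of these genes, 50.5% of the ctrl (DMSO) level remained with compound 4, 38.5% with compound 5, and 60.5% with compound 6, the log2 fold changes being −0.98, −1.38, and −0.72. Together the 28 genes took between 0.302% and 0.316% of the counts in ctrl (DMSO), between 0.166% and 0.181% with compound 4, between 0.148% and 0.152% with compound 5, and between 0.194% and 0.229% with compound 6. The 3 comparisons share the same ctrl (DMSO) samples. Of the 5 tested genes of the SREBP machinery, 0 were called with compound 4, 2 with compound 5 (SREBF2 lower, and MBTPS1 higher in a call that depended on scaling and on single samples), and 0 with compound 6.

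Of all 27 genes tested, 20 were called lower and 0 higher with compound 4, where 5.42% of all 13404 genes were called lower, 6.5% higher, and 11.9% in either direction. With compound 5, 20 were lower and 1 higher, against 14.2% lower, 13.9% higher, and 28.1% either way among all genes. With compound 6, 15 were lower and 0 higher, against 1.6% lower, 2.8% higher, and 4.4% either way. The median log2 fold change of the 27 genes was −0.91, −1.17, and −0.65, beside 0.00, −0.03, and 0.00 over all genes tested. Both treated samples lay below both ctrl (DMSO) samples for 22 genes with compound 4, 23 under compound 5, and 21 with compound 6, where this held for 27.1%, 37.3%, and 26.6% of all genes. Both lay above for 2, 2, and 1 of the 27 genes, against 27.5%, 32.9%, and 26.3% of all genes.

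The count with compound 6 rested on single samples more than those with compounds 4 and 5. It became 3 without ctrl (DMSO) replicate 1, 0 without ctrl (DMSO) replicate 2, 18 without compound 6 replicate 1, and 2 without compound 6 replicate 2, and it was 10 when the replicate number entered as a block. In the same fits without a sample, the calls among all 13404 genes went from 590 to 90, 1, 1001, and 49. The fold changes of the 27 genes kept a median between −0.78 and −0.46 in these fits without a sample. In the second replicate of compound 6, 20 of 21 enzyme genes were lower than in the first, whereas this was so for 19 in ctrl (DMSO), 1 under compound 4, and 4 under compound 5. The median gap of the 27 genes between replicates (second minus first, log2) was −0.30 with compound 6, −0.09 in ctrl (DMSO), 0.17 under compound 4, and 0.11 under compound 5. Over all 13404 genes the median gap was 0.002 with compound 6, −0.007 in ctrl (DMSO), 0.008 under compound 4, and −0.003 under compound 5.

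**Figure D1:**
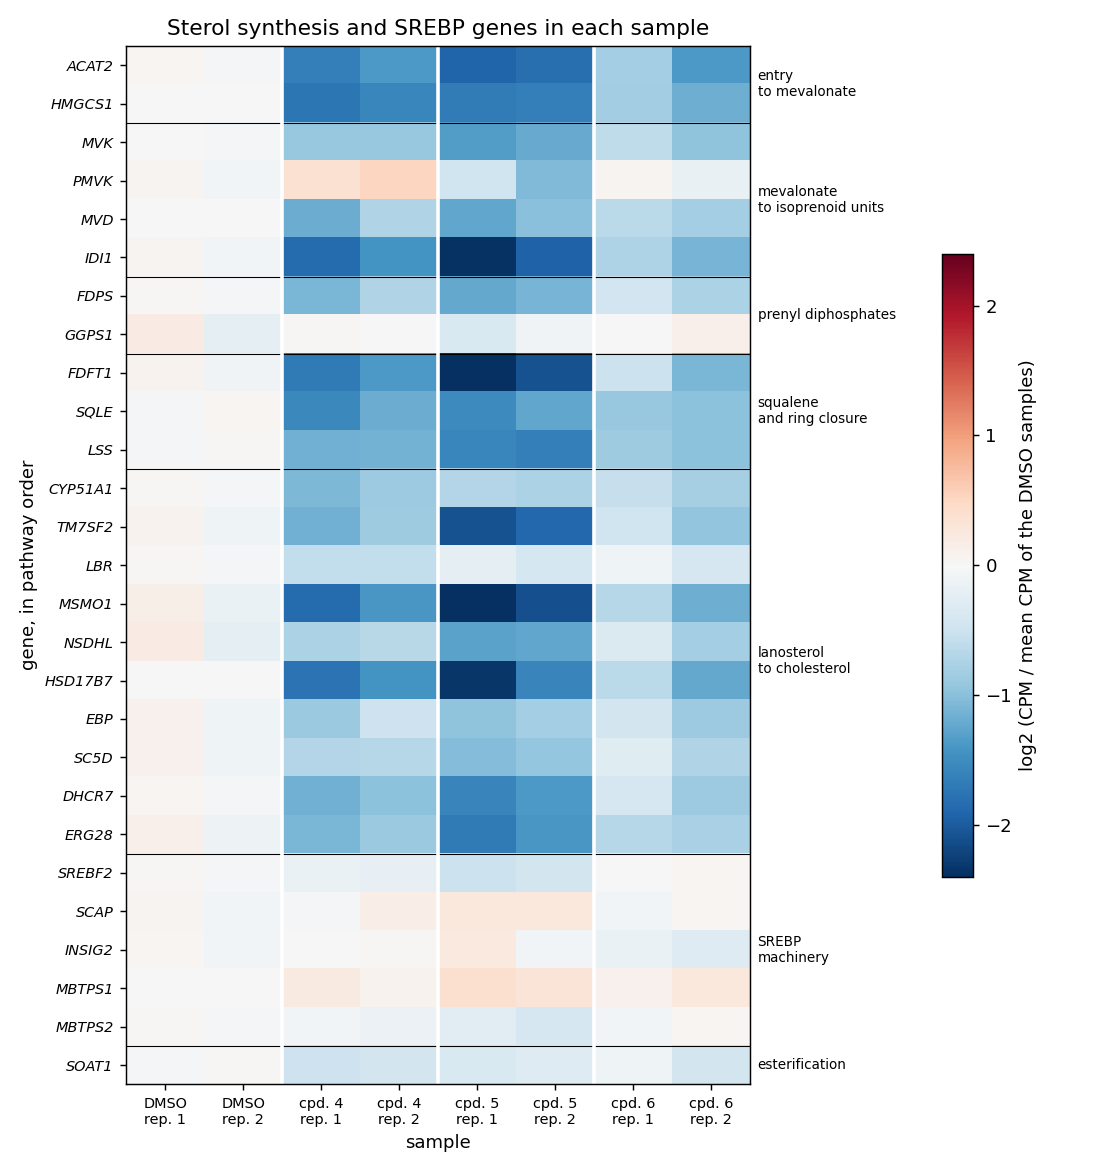
Log2 ratio of the CPM of each sample to the mean CPM of the ctrl (DMSO) samples, for the 27 tested genes (rows, in pathway order) and the 8 samples (columns); blue is lower and red is higher than ctrl (DMSO). The enzyme rows are blue with all 3 compounds except GGPS1 and PMVK, and among the rows of the SREBP machinery SREBF2 is pale blue and MBTPS1 pale red with compound 5 (−0.48 and 0.35).

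The entry to the pathway fell with all 3 compounds. ACAT2, the cytosolic thiolase that joins 2 molecules of acetyl-CoA, was at 162 and 152 CPM in ctrl (DMSO), 50.7 and 60.1 under compound 4, 41.7 and 44.9 under compound 5, and 89.5 and 60.6 under compound 6. All treated samples were below ctrl (DMSO), and the log2 fold changes were −1.50 (SE 0.17, adjusted p = 6.43e-04), −1.86 (SE 0.17, adjusted p = 9.97e-05), and −1.07 (SE 0.16, adjusted p = 0.00847). HMGCS1 makes HMG-CoA, from which mevalonate is formed, and its level was 149 and 148 CPM in ctrl (DMSO), 44.5 and 50.2 under compound 4, 46.7 and 47.7 under compound 5, and 83.2 and 66.2 under compound 6. It had the largest called change with compound 4, −1.65 (SE 0.13, adjusted p = 2.13e-04), and about the same with compound 5, −1.66 (SE 0.13, adjusted p = 5.75e-05). With compound 6 it fell by 1.00 on the log2 scale (SE 0.12, adjusted p = 0.00465).

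Of the 4 enzymes that turn mevalonate into isoprenoid units, MVK, MVD, and IDI1 fell with every compound, and PMVK passed the test with compound 5. MVK, the first mevalonate kinase, was at 47.2 and 45.9 CPM in ctrl (DMSO), 24.7 and 24.7 under compound 4, 18.4 and 20.1 under compound 5, and 30.5 and 24.0 under compound 6. MVK changed by −0.91 (adjusted p = 0.00227), −1.27 (adjusted p = 2.18e-04), and −0.78 (adjusted p = 0.0135) with compounds 4, 5, and 6, each SE being 0.14. MVD, which removes a carboxyl group to give isopentenyl diphosphate, was at 88.0 and 86.8 CPM in ctrl (DMSO), 38.1 and 52.7 under compound 4, 36.8 and 43.6 under compound 5, and 56.1 and 49.8 under compound 6. No treated sample reached the ctrl (DMSO) level of MVD, and its changes were −0.94, −1.12, and −0.72 (each SE 0.15, adjusted p = 0.00352, 6.92e-04, and 0.0278). IDI1, the isomerase that balances the isoprenoid units, was at 97.6 and 89.3 CPM in ctrl (DMSO), 26.1 and 34.6 under compound 4, 18.1 and 24.5 under compound 5, and 55.8 and 42.9 under compound 6. IDI1 was among the genes that fell most, with log2 fold changes of −2.13 for compound 5 (SE 0.19, adjusted p = 9.50e-05), −1.62 for compound 4 (SE 0.18, adjusted p = 6.62e-04), and −0.92 for compound 6 (SE 0.18, adjusted p = 0.0183).

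PMVK, the second mevalonate kinase, was low throughout, at 8.66 and 7.97 CPM in ctrl (DMSO), 10.8 and 11.9 under compound 4, 5.96 and 4.00 under compound 5, and 8.65 and 7.33 under compound 6. The compound 4 samples were the highest of the 8 and the compound 5 samples the lowest. Its change was −0.75 with compound 5 (SE 0.22, adjusted p = 0.0270), which did not pass in DESeq2 (adjusted p = 0.109), 0.45 with compound 4 (SE 0.20, adjusted p = 0.175), and −0.06 with compound 6 (SE 0.21, adjusted p = 0.909). Without 1 sample the call with compound 5 was lost in 3 of 4 fits, with adjusted p = 0.132 without ctrl (DMSO) replicate 1, 0.0852 without ctrl (DMSO) replicate 2, and 0.196 without compound 5 replicate 2.

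Of the enzymes that make prenyl diphosphates, FDPS fell with every compound and GGPS1 gave no call. FDPS makes farnesyl diphosphate, from which both squalene and geranylgeranyl diphosphate are made, and was at 195 and 185 CPM in ctrl (DMSO), 88.3 and 114 under compound 4, 81.1 and 87.5 under compound 5, and 137 and 112 under compound 6. It changed by −0.90 (adjusted p = 0.00294), −1.17 (adjusted p = 3.73e-04), and −0.61 (adjusted p = 0.0381, or 0.0568 with the replicate block), each SE being 0.14. GGPS1 adds a further isoprenoid unit to make geranylgeranyl diphosphate, which is attached to proteins, and was at 21.6 and 15.9 CPM in ctrl (DMSO), 19.2 and 18.9 under compound 4, 14.6 and 17.7 under compound 5, and 18.9 and 20.3 under compound 6. Each treated group overlapped ctrl (DMSO), and the 95% confidence intervals of the log2 fold change of GGPS1 against ctrl (DMSO) ran from −0.34 to 0.40, −0.58 to 0.17, and −0.30 to 0.44. Of the 31-base stretches in GGPS1 transcripts, 40.3% also occur in another gene, ENSG00000285053 (23 to 152 counts per sample), and in FDPS 10.7% occur elsewhere, mostly in UNKL, so their estimated counts are less certain.

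Squalene formation and ring closure fell with every compound, and FDFT1 differed most between compounds 5 and 6. FDFT1, squalene synthase, commits farnesyl diphosphate to sterols and was at 310.1 and 274 CPM in ctrl (DMSO), 90.4 and 112 under compound 4, 53.3 and 68.7 under compound 5, and 203 and 137 under compound 6. The 4 groups did not overlap, and the changes were −1.52 (SE 0.19, adjusted p = 0.00122), −2.26 (SE 0.20, adjusted p = 9.50e-05), and −0.78 (SE 0.19, adjusted p = 0.0437, or 0.0638 with the replicate block). SQLE, the epoxidase that is rate-limiting beside HMG-CoA reductase, was at 174 and 187 CPM in ctrl (DMSO), 61.7 and 79.5 under compound 4, 62.8 and 76.0 under compound 5, and 95.9 and 90.8 under compound 6. Compounds 4 and 5 overlapped in SQLE, with changes of −1.35 and −1.38 (each SE 0.14, adjusted p = 4.42e-04 and 1.57e-04), and compound 6 gave −0.95 (SE 0.14, adjusted p = 0.00660). LSS, which closes squalene epoxide into lanosterol, was at 73.2 and 77.2 CPM in ctrl (DMSO), 33.9 and 34.2 under compound 4, 25.6 and 24.1 under compound 5, and 41.6 and 37.8 under compound 6. Its replicates lay close together, and its changes of −1.14, −1.60, and −0.92 each had an SE of 0.11 (adjusted p = 3.36e-04, 3.10e-05, and 0.00425).

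From lanosterol to cholesterol, 10 of 10 genes fell with compound 4, 9 under compound 5, and 6 with compound 6, at median log2 fold changes of −0.98, −1.37, and −0.66. Several of these enzymes remove methyl groups from the sterol ring. MSMO1, the oxidase of that step, was at 122 and 99.0 CPM in ctrl (DMSO), 30.95 and 41.8 under compound 4, 20.4 and 25.5 under compound 5, and 69.3 and 49.4 under compound 6. With −2.26 (SE 0.20, adjusted p = 9.66e-05) it had the largest called change with compound 5 among the 27 genes, and it changed by −1.60 with compound 4 (SE 0.20, adjusted p = 0.00109) and −0.90 with compound 6 (SE 0.19, adjusted p = 0.0286). NSDHL, the dehydrogenase of the same step, was at 59.6 and 45.0 CPM in ctrl (DMSO), 30.8 and 33.2 under compound 4, 21.5 and 21.9 under compound 5, and 41.3 and 29.7 under compound 6. It fell with compounds 4 and 5, at −0.71 (SE 0.17, adjusted p = 0.0235) and −1.26 (SE 0.18, adjusted p = 7.49e-04), while with compound 6 the change was −0.56 (SE 0.17, adjusted p = 0.0922).

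HSD17B7, the reductase that completes the demethylation, was at 29.04 and 28.6 CPM in ctrl (DMSO), 8.47 and 10.6 under compound 4, 5.68 and 9.58 under compound 5, and 18.4 and 12.3 under compound 6. Its changes were −1.59 (SE 0.24, adjusted p = 0.00233), −1.90 (SE 0.24, adjusted p = 4.79e-04), and −0.92 (SE 0.23, adjusted p = 0.0494, or 0.0701 with the replicate block). It shares 22.5% of its 31-base stretches with other genes, mostly its pseudogene HSD17B7P2, which was at 16 to 88 counts. ERG28, the scaffold of the demethylation enzymes, was at 50.2 and 42.3 CPM in ctrl (DMSO), 21.5 and 25.1 under compound 4, 14.2 and 17.6 under compound 5, and 28.8 and 27.0 under compound 6. All treated samples of ERG28 were below ctrl (DMSO), with changes of −0.98, −1.54, and −0.73 (each SE 0.15, adjusted p = 0.00235, 1.43e-04, and 0.0236).

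CYP51A1, the cytochrome that first demethylates lanosterol, was lower with all 3 compounds. It was at 181 and 176 CPM in ctrl (DMSO), 85.0 and 97.1 under compound 4, 109 and 105 under compound 5, and 121 and 102 under compound 6. The changes were −0.97, −0.74, and −0.68 (each SE 0.12, adjusted p = 9.72e-04, 0.00133, and 0.0125), and compounds 5 and 4 differed by 0.23 (adjusted p = 0.192). In the reference transcripts 80.0% of its 31-base stretches also occur in other genes, mostly ENSG00000285772, which had 0 counts in all 8 samples.

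The following reduction can be done by TM7SF2 or by LBR, and LBR was called with fewer compounds. TM7SF2 was at 51.1 and 45.0 CPM in ctrl (DMSO), 21.5 and 26.8 under compound 4, 11.3 and 13.0 under compound 5, and 34.6 and 25.0 under compound 6. It changed by −0.99 (SE 0.17, adjusted p = 0.00512), −1.98 (SE 0.18, adjusted p = 1.06e-04), and −0.69 (SE 0.17, adjusted p = 0.0481, or 0.0648 with the replicate block). LBR, which also anchors chromatin at the nuclear envelope, was at 129 and 123 CPM in ctrl (DMSO), 83.6 and 84.3 under compound 4, 108 and 94.6 under compound 5, and 118 and 95.6 under compound 6. LBR fell with compound 4, by 0.59 on the log2 scale (SE 0.12, adjusted p = 0.0119), and that call was lost without ctrl (DMSO) replicate 1 (adjusted p = 0.0836) or replicate 2 (adjusted p = 0.0797). With compounds 5 and 6 its changes were −0.32 and −0.24 (adjusted p = 0.0741 and 0.300), and the former passed under upper-quartile scaling (adjusted p = 0.0337), library size alone (adjusted p = 0.0249), and with only the groups compared (adjusted p = 0.0269).

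The last steps fell with compounds 4 and 5. EBP, the isomerase that shifts the ring double bond, was at 69.7 and 60.7 CPM in ctrl (DMSO), 35.4 and 46.4 under compound 4, 33.3 and 37.3 under compound 5, and 47.8 and 35.7 under compound 6. EBP changed by −0.67 (adjusted p = 0.0254), −0.88 (adjusted p = 0.00376), and −0.65 (adjusted p = 0.0562), each SE being 0.17. SC5D, the desaturase, was at 68.7 and 59.9 CPM in ctrl (DMSO), 39.6 and 40.2 under compound 4, 31.3 and 33.6 under compound 5, and 52.7 and 38.8 under compound 6. SC5D changed by −0.69, −0.99, and −0.50 (each SE 0.15, adjusted p = 0.0127, 0.00106, and 0.0804), so that compound 6 gave no call for either gene. With all samples kept, EBP passed with compound 6 in 5 alternatives, DESeq2 among them (adjusted p = 0.0179), and SC5D and NSDHL passed with no filter on low counts (adjusted p = 0.0120 and 0.00514). Without compound 6 replicate 1, EBP, SC5D, and NSDHL all passed (adjusted p = 0.0265, 0.0193, and 0.0332). With compound 4, leaving out 1 sample ended the calls of EBP (3 of 4 fits), SC5D (2 of 4), and NSDHL (2 of 4), in each case including the fit without ctrl (DMSO) replicate 1 (adjusted p = 0.157, 0.101, and 0.181). DHCR7, which reduces 7-dehydrocholesterol to cholesterol, was at 300.5 and 280.3 CPM in ctrl (DMSO), 130.5 and 147 under compound 4, 96.5 and 112 under compound 5, and 219.8 and 159.6 under compound 6. It fell with every compound, at −1.06, −1.47, and −0.62 (each SE 0.15, adjusted p = 0.00184, 1.71e-04, and 0.0447, the last being 0.0630 with the replicate block).

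Levels can be compared between genes only per length of transcript. In ctrl (DMSO), FDPS stood highest at 115 ± 4.21 CPM per kb of exon (SD, n = 2), followed by DHCR7 at 109 ± 5.34, and these 2 differed by no more than the sum of their SDs. FDFT1 at 63.5 ± 5.61 and SQLE at 60.8 ± 3.03 came next and overlapped too. The lowest of the tested genes were SOAT1 at 7.02 ± 0.140, PMVK at 6.50 ± 0.382, GGPS1 at 6.03 ± 1.30, and MBTPS2 at 4.49 ± 0.126 CPM per kb.

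**Figure D2:**
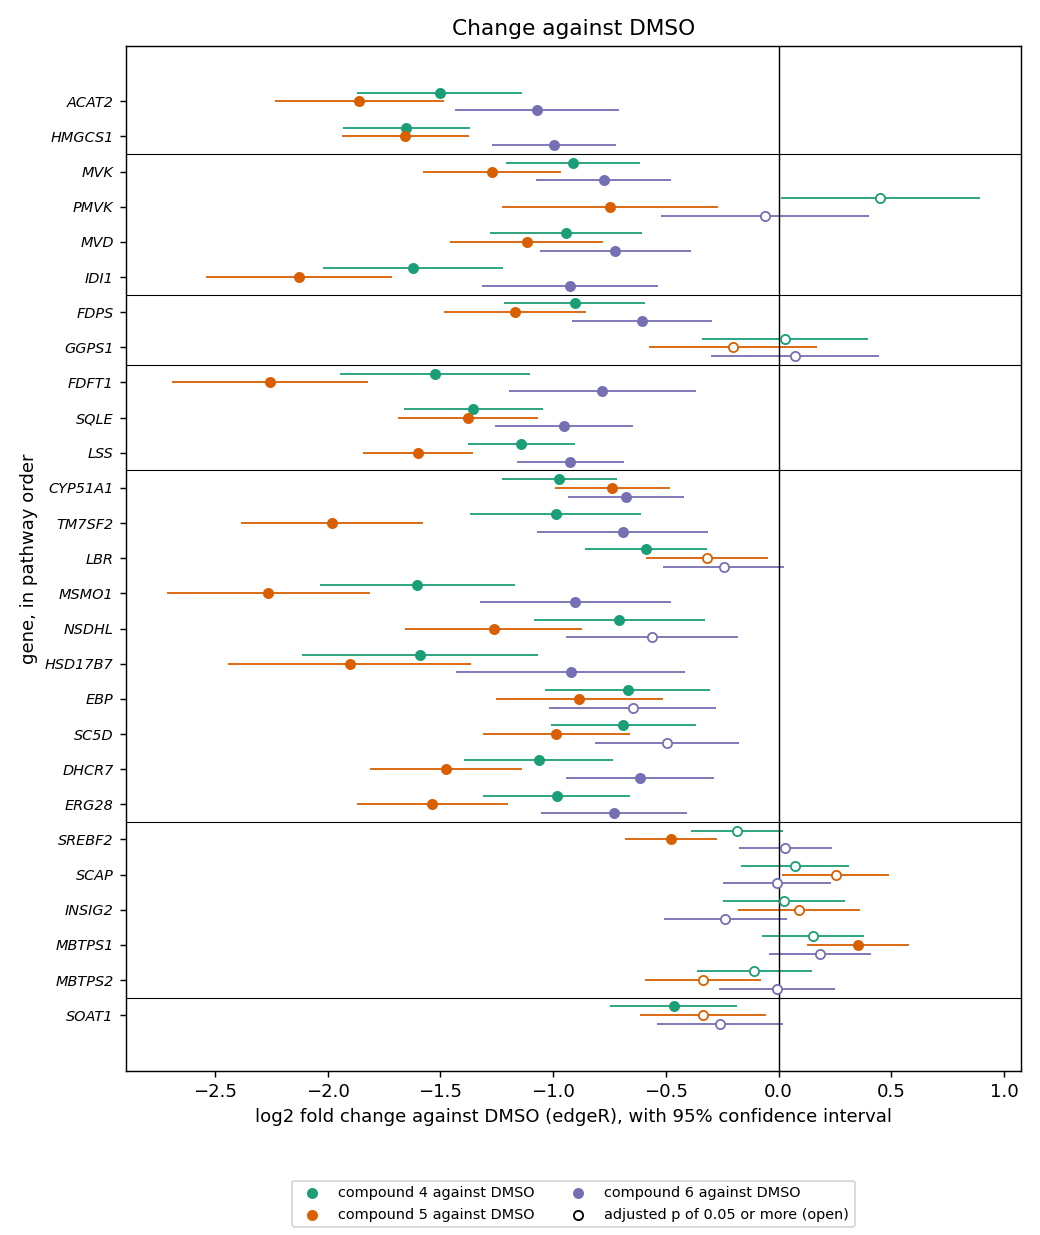
Log2 fold change against ctrl (DMSO) for each tested gene (rows, in pathway order) and compound (colors), with a 95% confidence interval derived from the edgeR test as a line. Open circles have an adjusted p of 0.05 or more. The enzymes lie left of 0 with the exception of PMVK with compound 4 and GGPS1 with compounds 4 and 6, and MSMO1 and FDFT1 with compound 5 lie farthest left at −2.26.

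Of the SREBP machinery, the changes that passed were with compound 5. SREBF2, which encodes SREBP-2 and holds the marked TCACNCCAC match in its promoter window, was at 255 and 246 CPM in ctrl (DMSO), 223 and 218 under compound 4, 176 and 184 under compound 5, and 253 and 258 under compound 6. Samples of compounds 4 and 5 were below ctrl (DMSO), and those of compound 6 overlapped it. SREBF2 fell by 0.48 on the log2 scale with compound 5 (SE 0.09, adjusted p = 0.00425), an adjusted p that became 0.0622 without compound 5 replicate 1. Its change was −0.18 with compound 4 (SE 0.09, adjusted p = 0.232) and 0.03 with compound 6 (SE 0.09, adjusted p = 0.897).

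MBTPS1, the protease that makes the first cut in SREBP-2, was at 158 and 156 CPM in ctrl (DMSO), 183 and 166 under compound 4, 206 and 195 under compound 5, and 169.7 and 187 under compound 6. Every treated sample was above ctrl (DMSO), but only compound 5 passed, at 0.35 (SE 0.10, adjusted p = 0.0269), beside 0.15 and 0.18 (adjusted p = 0.380 and 0.359). That call was lost under upper-quartile scaling (0.27, adjusted p = 0.0727), under library size alone (0.25, adjusted p = 0.0893), and when any 1 of the 4 samples was left out (adjusted p = 0.0825 to 0.135). MBTPS2, the protease that makes the second cut, ranged from 26.5 to 36.2 CPM over the 8 samples, and its change with compound 5 was −0.34 (SE 0.12, adjusted p = 0.0532), which passed under upper-quartile scaling (adjusted p = 0.0213). The MBTPS2 transcripts share 14.3% of their 31-base stretches with other genes, mostly YY2.

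SCAP, the escort of SREBP-2, was at 104 and 95.3 CPM in ctrl (DMSO), 98.6 and 111 under compound 4, 119 and 119 under compound 5, and 95.3 and 103 under compound 6. Its change with compound 5 was 0.25 (SE 0.11, adjusted p = 0.102, or 0.0324 with only the groups compared), and with compounds 4 and 6 it was 0.07 and −0.01. INSIG2, which retains SCAP in the endoplasmic reticulum, was at 105 and 97.6 CPM in ctrl (DMSO), 102 and 104 under compound 4, 119.5 and 96.5 under compound 5, and 90.9 and 81.5 under compound 6. Its confidence intervals ran from −0.25 to 0.29, −0.18 to 0.36, and −0.51 to 0.04, and no compound was called. INSIG1 (ENSG00000186480), the other retention protein and itself a known target of SREBP, was listed at 0 in all 8 samples, as was the neighbouring INSIG1-DT, whereas the genes on either side, PAXIP1 and RBM33, had 264 to 420 and 558 to 1069 counts. Hence no value for INSIG1 is given.

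SOAT1, which esterifies cholesterol for storage, was at 47.9 and 49.3 CPM in ctrl (DMSO), 34.4 and 36.0 under compound 4, 37.9 and 39.3 under compound 5, and 45.5 and 36.0 under compound 6. All treated samples were below ctrl (DMSO), but only compound 4 was called, at −0.47 (SE 0.13, adjusted p = 0.0379). This call was lost in DESeq2 (adjusted p = 0.0535) and when any 1 of the 4 samples was left out (adjusted p = 0.0717 to 0.215). With compounds 5 and 6 the changes were −0.33 and −0.26 (adjusted p = 0.0710 and 0.289), and the former passed under upper-quartile scaling (adjusted p = 0.0317), library size alone (adjusted p = 0.0254), and with only the groups compared (adjusted p = 0.0246).

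**Figure D3:**
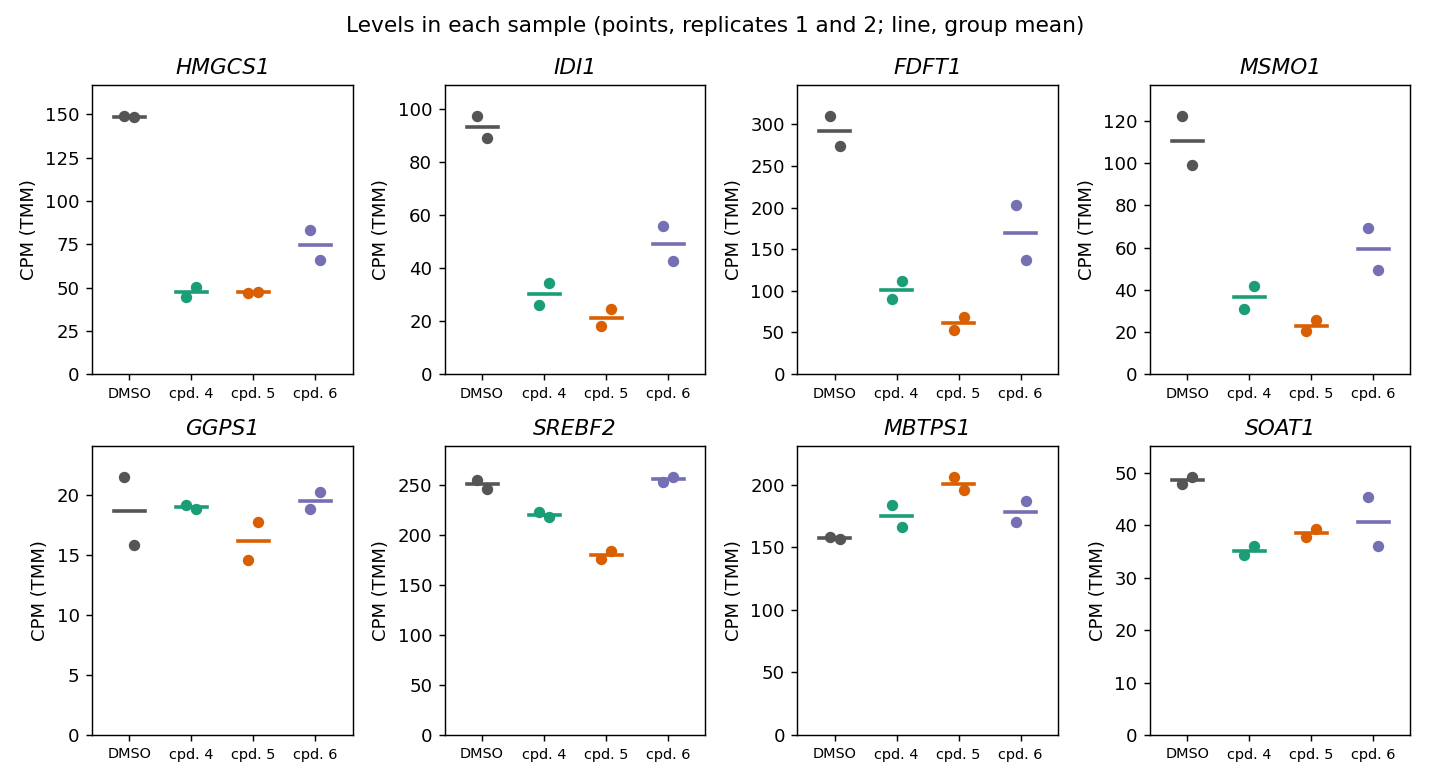
CPM (TMM-scaled, linear axes from 0) of 8 genes in each sample (points) with the group mean (lines). HMGCS1, IDI1, FDFT1, and MSMO1 lie below ctrl (DMSO) with all 3 compounds, GGPS1 overlaps it, SREBF2 is lowest with compound 5 at 176 and 184, MBTPS1 is highest with compound 5 at 206 and 195, and SOAT1 lies below ctrl (DMSO) with all 3 compounds.

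All 3 pairs of compounds were compared at their IC50 concentrations, each with p-values adjusted over all genes. Compound 5 gave lower levels than compound 6 for 13 of the 27 genes, of which 12 were enzymes, against 5.16% of all genes lower, 4.76% higher, and 9.91% either way. The largest differences were in FDFT1 (−1.47, SE 0.19, adjusted p = 0.00296), MSMO1 (−1.36, SE 0.20, adjusted p = 0.00452), TM7SF2 (−1.29, SE 0.19, adjusted p = 0.00420), and IDI1 (−1.20, SE 0.19, adjusted p = 0.00512). ACAT2, HMGCS1, FDPS, LSS, NSDHL, HSD17B7, DHCR7, and ERG28 were lower too, by 0.56 to 0.98, and HSD17B7 did not pass with the replicate block (adjusted p = 0.0509). SREBF2 was the gene outside the enzymes, at −0.51 (SE 0.09, adjusted p = 0.0102). Both compound 5 samples lay below both compound 6 samples in 20 of the 27 genes and above in 3, as 30.2% and 28.5% of all genes did. The count of 13 became 1 without compound 5 replicate 1, 7 without compound 5 replicate 2, 4 without compound 6 replicate 1, and 15 without compound 6 replicate 2. In these fits the calls among all genes went from 1329 to 143, 278, 211, and 1016.

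Compound 5 was lower than compound 4, its relative with the smaller ring substituents, for 5 of the 27 genes, against 7.04% of all genes lower, 6.91% higher, and 13.9% either way. These were PMVK (−1.20, SE 0.21, adjusted p = 0.00922), TM7SF2 (−0.99, SE 0.19, adjusted p = 0.0109), FDFT1 (−0.73, SE 0.19, adjusted p = 0.0344), ERG28 (−0.55, SE 0.16, adjusted p = 0.0419), and LSS (−0.46, SE 0.11, adjusted p = 0.0268). ERG28 did not pass with the replicate block (adjusted p = 0.0538) or in DESeq2 (adjusted p = 0.0736), nor did LSS in DESeq2 (adjusted p = 0.0653). Neither passed with only the groups compared (adjusted p = 0.0851 and 0.0742). HMGCS1 and SQLE gave no call, with 95% confidence intervals from −0.29 to 0.28 for HMGCS1 and −0.33 to 0.29 for SQLE, so differences of that size in either direction would be compatible with the data. The intervals of CYP51A1 and LBR lay mostly on the other side, from −0.02 to 0.49 and −0.00 to 0.54. Both compound 5 samples were below both compound 4 samples in 16 of the 27 genes and above in 5, as 31.8% and 28.3% of all genes were. The count of 5 became 8 without compound 4 replicate 1, 2 without compound 4 replicate 2, 1 without compound 5 replicate 1, and 0 without compound 5 replicate 2. In these fits the calls among all genes went from 1869 to 2709, 579, 111, and 167.

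Compounds 4 and 6, which differ by tert-butyl against cyclohexyl, gave 0 of 27 calls in edgeR with low counts filtered, and 0.0448% of all genes were called, 0.0224% in each direction. At an unadjusted p under 0.05, 12 of the 27 genes and 9.81% of all genes passed, and DESeq2 called 2, HMGCS1 and FDFT1. With no filter on low counts, edgeR called 6 lower with compound 4, which were HMGCS1, IDI1, FDFT1, MSMO1, HSD17B7, and DHCR7, beside 294 of the 22717 genes then tested. The median log2 difference was −0.22, lower with compound 4, and the intervals were wide, from −0.94 to −0.37 for HMGCS1, −1.16 to −0.32 for FDFT1, −1.14 to −0.27 for MSMO1, and −1.10 to −0.29 for IDI1. For TM7SF2 the interval ran from −0.68 to 0.09 and for LSS from −0.46 to 0.02, so equal response is not shown for these genes either. Both compound 4 samples lay below both compound 6 samples in 14 of the 27 genes and above in 2, as 17.7% and 18.8% of all genes did.

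**Figure D4:**
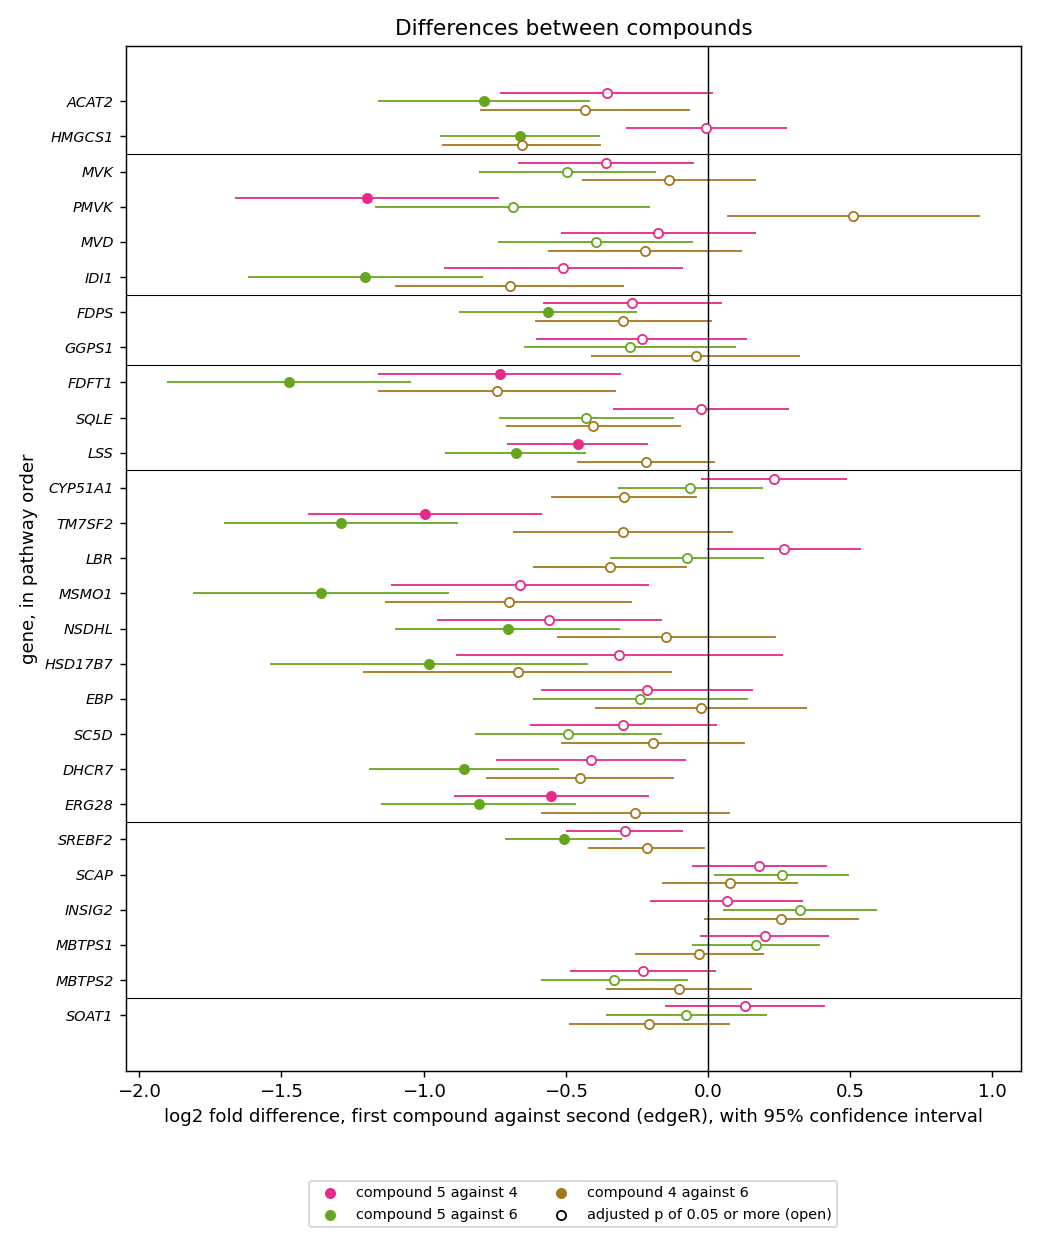
Log2 difference between compounds for each tested gene (rows, in pathway order), with 95% confidence intervals; open circles have an adjusted p of 0.05 or more. Compound 5 against compound 6 has 13 filled points, compound 5 against compound 4 has 5, and compound 4 against compound 6 has none.

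Genes beside the pathway were examined in 5 further lists. Of all tested genes, the shares called in either direction were 11.9%, 28.1%, and 4.4% with compounds 4, 5, and 6. Of 11 targets of SREBP counted outside sterol synthesis, which include the genes of fatty acid synthesis, 8, 9, and 0 were called lower with compounds 4, 5, and 6. Of all genes, 5.42%, 14.2%, and 1.6% were called lower. The count with compound 4 was 4 without ctrl (DMSO) replicate 1 and 3 without ctrl (DMSO) replicate 2. That with compound 6 was 4 without compound 6 replicate 1 (TMEM97, ACSS2, SCD, and FADS2). With all samples kept, these 4 were called with no filter on low counts, and TMEM97 alone in 5 other alternatives, DESeq2 and the replicate block among them. The median log2 fold change of these 11 genes was −0.75, −0.83, and −0.27. FADS2, a fatty acid desaturase, was at 11.3 and 9.37 CPM in ctrl (DMSO), 2.91 and 3.82 under compound 4, 3.48 and 3.61 under compound 5, and 7.09 and 3.54 with compound 6. Its changes were −1.61 with compound 4 (SE 0.30, adjusted p = 0.00747) and −1.54 with compound 5 (SE 0.30, adjusted p = 0.00429). SCD, which makes monounsaturated fatty acids, was at 1672 and 1650.2 CPM in ctrl (DMSO) and 642 and 599 with compound 5, a change of −1.42 (SE 0.16, adjusted p = 2.68e-04), with 928 and 811 for compound 4 (−0.93, adjusted p = 0.00453) and 1515 and 1032 for compound 6 (−0.38, adjusted p = 0.204). ACSS2, which makes acetyl-CoA from acetate, changed by −1.41 with compound 5 (SE 0.17, adjusted p = 3.72e-04) and −0.78 with compound 4 (SE 0.17, adjusted p = 0.0131). With compound 4 the call of ACSS2 was lost without either ctrl (DMSO) replicate (adjusted p = 0.0625 and 0.102), and that of FADS2 without ctrl (DMSO) replicate 1 (adjusted p = 0.0552).

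Of 16 genes counted in the branches of the mevalonate pathway that make dolichol, ubiquinone, and prenylated proteins, 0 were called with compound 4, 3 rose and 1 fell with compound 5, and 1 fell with compound 6. The share with compound 5 was near the 28.1% of all genes. The count of 0 with compound 4 depended on the setting. In edgeR with no filter on low counts, COQ2 was called lower (−0.69, adjusted p = 0.00744). With at least 10 counts in every sample, DHDDS was called higher (0.37, adjusted p = 0.0490). Without compound 4 replicate 2, COQ2 and TRIT1 were at −0.97 and −0.69. RABGGTB, a subunit of the enzyme that attaches geranylgeranyl to Rab proteins, rose by 0.80 with compound 5 (SE 0.12, adjusted p = 0.00119), from 108 and 100.2 to 194 and 168 CPM. SRD5A3, of dolichol synthesis, fell by 0.73 (SE 0.22, adjusted p = 0.0312), and FNTB, a subunit of protein farnesyltransferase, fell by 0.65 with compound 6 (SE 0.14, adjusted p = 0.0303). SRD5A3 did not pass in DESeq2 (adjusted p = 0.0728) or in 3 of the 4 fits without a sample (adjusted p = 0.0804 to 0.211). FNTB did not pass when any 1 of the 4 samples was left out (adjusted p = 0.0619 to 0.276). Of 10 genes of sterol-regulated degradation and SREBP processing, 0 were called with compounds 4 and 6, and with compound 5 3 fell and 1 rose, beside 28.1% of all genes. ERLIN2 and ERLIN1, partner proteins in the degradation of HMG-CoA reductase, changed by −0.75 (SE 0.11, adjusted p = 0.00117) and −0.73 (SE 0.10, adjusted p = 8.31e-04), and RNF145, a ubiquitin ligase of the same process, by −0.45 (SE 0.14, adjusted p = 0.0306). RNF145 did not pass in DESeq2 (adjusted p = 0.104) or without either ctrl (DMSO) replicate or compound 5 replicate 1 (adjusted p = 0.0988 to 0.252). Named after their values were seen, DHDDS (0.53) and NUS1 (0.52) of the branch list and the ligase MARCHF6 (0.38) were the others that rose with compound 5 (adjusted p = 0.00582, 0.00323, and 0.0200). The adjusted p of MARCHF6 was 0.0682 under library size alone and 0.0509 under upper-quartile scaling. The call of MARCHF6 was also lost in all 4 fits without a sample (adjusted p = 0.0640 to 0.134), and that of DHDDS without ctrl (DMSO) replicate 1 (adjusted p = 0.0555).

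Of 5 electron donors of the sterol enzymes, 1 fell with compound 4, 2 fell and 1 rose with compound 5, and 0 were called with compound 6, beside 11.9%, 28.1%, and 4.4% of all genes. Without compound 4 replicate 1, the count with compound 4 was 0 lower and 2 higher (POR and CYB5A, adjusted p = 0.0365 and 0.0210), and CYB5A was also called higher in DESeq2 and with no filter. POR, which feeds electrons to CYP51A1, SQLE, and CYP3A4, rose by 0.55 with compound 5 (SE 0.11, adjusted p = 0.00412), and CYB5B, a cytochrome of the mitochondrial outer membrane, fell by 0.61 (SE 0.12, adjusted p = 0.00368). PGRMC1, a heme-binding partner of cytochromes, fell by 0.46 with compound 4 (SE 0.11, adjusted p = 0.0225) and was at −0.42 with compound 5 (SE 0.11, adjusted p = 0.0165). These calls were lost in 3 and 4 of the 4 fits without a sample. Of 6 tested genes of LXR, the receptor for oxysterols, and its targets, 1 rose and 1 fell with compound 4, 1 rose and 2 fell with compound 5, and 0 were called with compound 6, against the same shares of all genes. MYLIP, a ubiquitin ligase, fell by 1.22 with compound 5 (SE 0.27, adjusted p = 0.00802), from 5.71 and 9.04 to 3.85 and 2.59 CPM. The call was lost without ctrl (DMSO) replicate 2 (adjusted p = 0.0931) or compound 5 replicate 2 (adjusted p = 0.0713). SMPDL3A, a secreted phosphodiesterase, rose by 0.68 with compound 4 (SE 0.16, adjusted p = 0.0215, or 0.0639 in DESeq2). NR1H2, an LXR gene named after its value was seen, rose by 0.55 with compound 5 (SE 0.16, adjusted p = 0.0236). In 3 of 4 fits without a sample the calls of both were lost, with adjusted p = 0.0548 to 0.203 for SMPDL3A and 0.0664 to 0.144 for NR1H2. The cholesterol exporter ABCA1 was at −0.71 with compound 4 (SE 0.20, adjusted p = 0.0457) and −0.59 with compound 5 (SE 0.20, adjusted p = 0.0492). Neither passed with the replicate block (adjusted p = 0.0524 and 0.0545) or in 3 and 4 of the 4 fits without a sample.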

How the data were processed

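RNA of the 8 samples was sequenced as paired reads from strand-specific libraries. The authors estimated transcript abundance with Salmon 1.5.0 on GENCODE 38 with gene sums by tximeta. The values deposited by the authors are these estimated counts, expected counts per gene as whole numbers without normalization. The submitters' processing notes also name FastQC 0.12.0 and DESeq2 1.38.3. By the column names, replicate 1 of compounds 4 and 5 was each merged from a pair of parts, whose nature the names do not state.

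Symbols were matched by Ensembl identifier (60089 of 60230 had one), lengths, coordinates, and 31-base stretches came from GENCODE 29 on GRCh38, not the release the authors used, and promoters from RefSeq on GRCh38.p14; where a gene had several windows, the first was used. The genes, the lists, and the tests were chosen with earlier results of these data known. All members are named by role, with values in every sample where called, and of each other list up to 3 called genes with the largest change, and further ones where stated. Some genes of the other lists are not reported here, and the counts and medians of those lists leave them out, so they do not cover every gene first listed.

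Tests used edgeR 4.0.16 in R 4.3.3 (TMM, factors between 0.958 and 1.04; filterByExpr; quasi-likelihood test over all 8 samples and 4 groups; 13404 genes; Benjamini-Hochberg adjusted p under 0.05 within each of 6 contrasts) and the procedure was tested on simulated data. Printed CPM are counts relative to the TMM-scaled library. Each SE was derived from the log2 fold change and the F statistic of the edgeR test, which gives none itself. Confidence intervals were built from this SE and the t distribution. Alternatives were DESeq2 1.42.0, RLE, upper-quartile and library-size scaling, other filters, a cutoff of 0.01, only the groups compared, the replicate block, and leaving out each replicate. Replicates carry day 1 or day 2 in the labels, which was taken as a pairing by day. The main test left this pairing out, and only the alternative with the replicate block used it. Deviations of same-numbered samples correlated between −0.08 and 0.16 over 13404 genes and between −0.50 and 0.55 over the 27 tested members. Replicates of a group differed by more than counting noise (chi-square per degree of freedom 5.51 to 17.2), so none was taken as a duplicate.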

Additional observations from a re-analysis of the deposited data

How the results depend on the processing

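The median log2 fold change of the 27 tested genes kept its sign in all 6 contrasts under every alternative run. The number of genes called was between 15 and 20 with compound 4 and between 19 and 24 with compound 5 over all alternatives, and leaving out a replicate gave 15 to 19 and, in each fit with compound 5, 19. With compound 6 it was 4 at a cutoff of 0.01, and 0 to 18 without a replicate, with a median of −0.78 to −0.46. For compound 5 against compound 4 it was 1 at a cutoff of 0.01, 8 under upper-quartile scaling and under library size alone, 9 with no filter, 3 with only the groups compared, and 0 to 8 without a replicate. For compound 5 against compound 6 it was 6 at a cutoff of 0.01 and 1 to 15 without a replicate, with a median of −0.68 to −0.41. For compound 4 against compound 6 it was 2 in DESeq2 and 6 with no filter. The cause of these shifts was not tested, except that the stricter cutoff and the smaller number of samples are part of the alternatives themselves.

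With the replicate number as a block, 20, 21, and 10 genes were called against ctrl (DMSO) with compounds 4, 5, and 6, and 4, 12, and 0 between compounds 5 and 4, 5 and 6, and 4 and 6. A fit without a replicate leaves 1 sample in a group, which is assumed to vary like the others. Upper-quartile scaling and library size alone moved the median of all genes with compound 5 from −0.03 to −0.12 and −0.14, a shift of −0.09 and −0.10, and lowered the share of higher among called genes from 49.3% to 36.6% and 33.3%, and DESeq2 raised it to 59.2%. For compound 5 against compound 4 this share went from 49.5% to 33.0%, 31.3%, and 67.3%, and against compound 6 from 48.0% to 28.7%, 28.4%, and 64.4%. Over all genes, calls rose from 590 to 1441 with compound 6 with no filter, from 1869 to 2812 for compound 5 against compound 4 (897 with only the groups compared), from 1329 to 2117 for compound 5 against compound 6, and from 6 to 294 for compound 4 against compound 6 (75 in DESeq2, 2 with only the groups compared). At the same cutoff of 0.05, 1, 2, and 5 genes of the pathway lost their call against ctrl (DMSO) with compounds 4, 5, and 6 under at least 1 alternative that kept all samples, and 0, 4, and 3 gained one. For the other lists over all 6 contrasts, 11 calls were lost and 36 gained in this way. No call was lost to a change of sign. The lowest CPM of any tested enzyme in a sample was that of PMVK, which ranged from 4.00 to 11.9 CPM. Which gene depth limits most was not tested.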
